A study of Mus musculus with 2 samples.

Results

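Occupancy of the transcription factor GATA4 was examined at 10 genes that encode metabolic regulators of the liver, 9 nuclear receptors (Nr1h3, Nr1h4, Nr0b2, Nr5a2, Rxra, Ppara, Nr1i2, Nr1i3 and Nr3c1) and the coactivator Ppargc1a, out of 22380 protein-coding genes of the GENCODE M1 annotation. The genes were chosen by name for what their products do, with earlier results of these data known. The GATA4 occupied sites (OS) assigned to them were those whose midpoint fell in the gene body or within 50 kb of it. By this rule 20 of the 4409 OS of the common list belonged to the 10 genes, and no OS was counted for more than 1 of them. GATA4 ChIP was carried out with the C-20 antibody (Santa Cruz sc-1237) on whole liver of C57BL/6 x Sv129 mice at 2 to 3 months after birth by the labels, while the methods give a range that begins and ends slightly later, and liver DNA of the same strain and age, taken without antibody, was the input. The chromatin came from 2 biological replicates of 2 livers each, yet the peak lists cover both replicates at once, so 1 ChIP sample and 1 input sample were at hand and no value below has a replicate error or a test. Whole liver mixes hepatocytes with endothelial, Kupffer, bile duct and stellate cells, and the lists do not tell in which of these cells a site was occupied. The files hold the position and the number of each peak without read counts, so the depth behind a single site is unknown.

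Nuclear receptors are transcription factors whose ligand-binding domain senses small lipophilic molecules such as oxysterols, bile acids, fatty acids, steroids and drugs. Many of them sit on DNA as heterodimers with the retinoid X receptor, on repeats of a hexamer close to AGGTCA, and they recruit coactivators such as PGC-1alpha or corepressors to the genes they control. In the liver this family sets the rates of bile acid synthesis, fatty acid oxidation, gluconeogenesis and drug clearance. GATA4 is a zinc finger factor that recognizes WGATAR, in which W is A or T and R is A or G.

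Over the whole series, SPP called 4811 peaks and MACS2 called 5867 peaks, and the 4409 peaks of the common list keep the coordinates of SPP. Each peak carries the same display score of 1000, so the number of a peak in its list is given in its place. For the reproducibility analysis the methods sorted SPP peaks by signal and MACS2 peaks by p-value, but neither they nor the files say that the deposited numbers keep this order, so a low number is read only as an early place in the list. As a check of the tissue, a common OS lay within 50 kb of 4 of 6 hepatocyte markers, 6 of 6 endothelial markers, 1 of 4 Kupffer cell markers, 0 of 4 cholangiocyte markers and 0 of 4 stellate cell markers, beside 27.7% of all protein-coding genes. Within 10 kb the counts in the same order were 3 of 6, 5 of 6, 0 of 4, 0 of 4 and 0 of 4, beside 13.7% of all protein-coding genes. The bodies of the endothelial markers ran from 12.3 to 167 kb and those of the stellate cell markers from 8.25 to 460 kb. Longer genes have wider windows, and the bearing of length on these counts was not tested. These counts are of binding near a gene and not of its expression.

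Each of the 10 genes had at least 1 OS within 50 kb, as did 27.7% of all protein-coding genes. Within 10 kb of the body an OS was found for 9 of the 10 genes, all but Nr1h3, against 13.7% of protein-coding genes. At least 2 OS were counted for 6 of the genes (9.15% of all protein-coding genes) and at least 3 for Nr5a2, Rxra and Nr1i3 (3.24%). Nr5a2 had the most with 4 OS, a number that 1.05% of protein-coding genes reach or exceed, but a pair of these overlap under the same MACS2 peak. In the MACS2 list Nr5a2 had 3 peaks, as many as Rxra, Nr1i3 and Nr3c1. The member genes are long, with a median body of 73.6 kb against 15.4 kb over all protein-coding genes, and a long gene has a wider window in which to catch a site. Per megabase of window, 12.3 OS were found around the 10 genes, 2.33 around all protein-coding genes and 2.93 around the 16074 protein-coding genes within the range of the members' lengths, of which 30.3% had an OS. The median body of that last group was 19.1 kb, so it is not matched to the members in length. These shares are given side by side without a test, since 1 list of peaks was available and the genes were picked with earlier results of these data known.

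**Figure D1:**
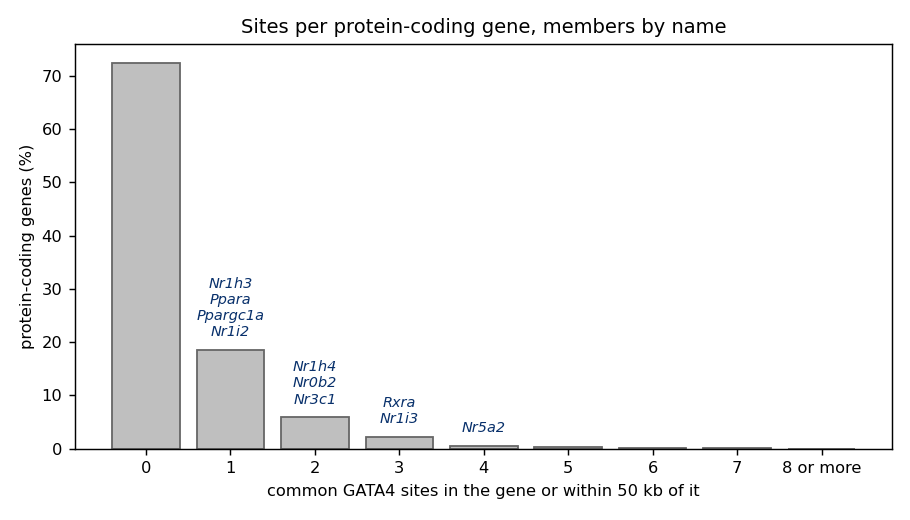
Percent of protein-coding genes (y axis) by the number of common GATA4 OS in the gene or within 50 kb of it (x axis), as grey bars, with the 10 metabolic regulator genes written above the bar of their own count. Nr1h3, Ppara, Ppargc1a and Nr1i2 stand above the bar of 1 OS and Nr5a2 alone stands above the bar of 4 OS, while 72.3% of protein-coding genes have 0.

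Of the 20 OS, 8 lay in a gene body, all 8 of them in introns, 6 lay upstream and 6 downstream. A midpoint in the body of some protein-coding gene was seen for 9 of the 20 OS and for 51.9% of all common OS. The nearest transcription start site (TSS) of a protein-coding gene belonged to the member itself for 15 of the 20 OS. The other 5 OS, the single one of Nr1h3, all 3 of Nr1i3 and the distal one of Nr3c1, lay closer to the TSS of a neighbouring gene. The TSS of all transcripts of protein-coding genes were used, noncoding transcripts included. The Ppara OS thus entered at 2393 bp, though the closest coding start of Ppara was 38476 bp away. Likewise Rxra OS 4293 entered at 11781 bp, with 41399 bp to the closest coding start. From the midpoint to the closest TSS the median was 3978 bp for the 20 OS and 14543 bp over the common list. Within 1 kb of a TSS lay 6 of the 20, against 16.6% of all common OS. The rule keeps only OS near a gene, which by itself shortens this distance. Over the 3839 common OS within 50 kb of any protein-coding gene, a comparison added after the data were seen, the median was 10354 bp and 19.0% lay within 1 kb of a TSS. The assigned OS farthest out was 45826 bp from Nr1i3, and the nearest OS left out were 67273 bp upstream of Nr3c1, 77047 bp upstream of Ppara and 93334 bp upstream of Rxra.

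**Figure D2:**
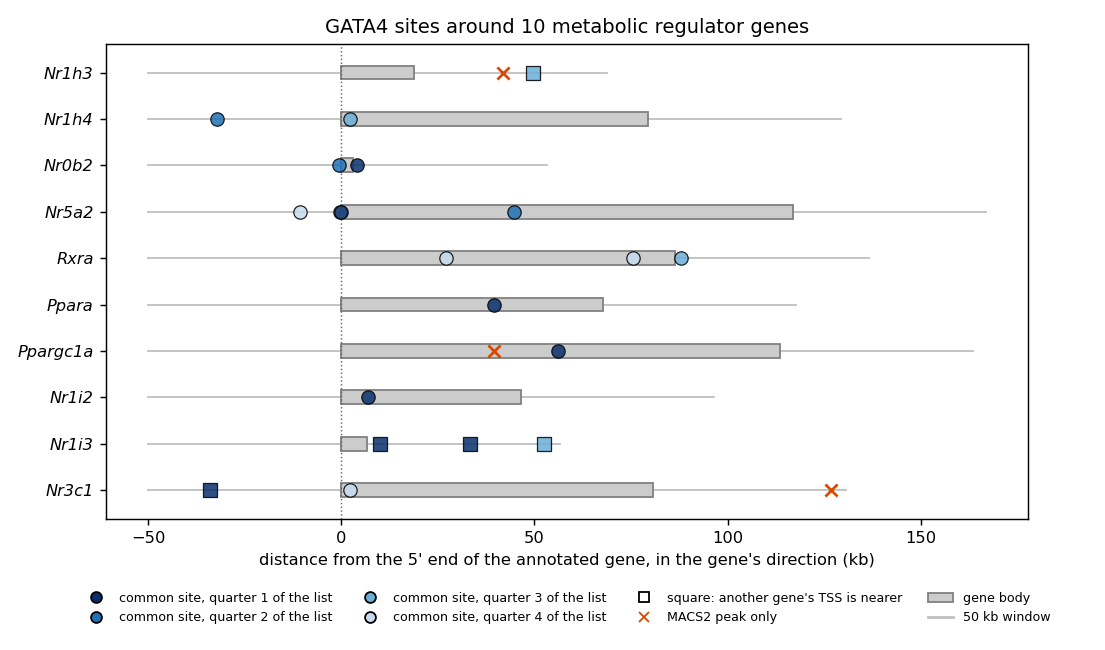
Positions of the 20 common GATA4 OS around the 10 genes, as distance in kb from the 5' end of the annotated gene in its own direction (x axis), with 1 gene per row (y axis), grey boxes for gene bodies and thin lines for the 50 kb windows. Darker points come earlier in the common list, squares mark the 5 OS that are nearer to the TSS of another gene, orange crosses mark the 3 peaks in these windows that MACS2 alone called, and both promoter OS of Nr5a2 fall on 1 point at this scale.

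Among the genes of sterol and bile acid sensing, Nr0b2 and Nr5a2 had OS just upstream of their own TSS, Nr1h4 had an OS in its first intron, and Nr1h3 had a distant one only. Nr0b2 encodes SHP, an atypical receptor without a DNA-binding domain that the bile acid receptor FXR induces and that represses bile acid synthesis. Its gene is the shortest of the 10, with 3.16 kb at chr4:133109291-133112451 (mm9, plus strand), and an OS flanked it on either side. The OS with number 1690 of 4409 in the common list covered chr4:133108692-133108906 with its midpoint 492 bp upstream of the TSS, and the MACS2 peak over it had the number 534 of 5867. The OS with the number 456 covered chr4:133113323-133113568, 994 bp past the end of the gene and 4154 bp from its TSS, under the MACS2 peak with the number 299. The midpoints of both were 4646 bp apart. They differed in sequence, since the promoter OS held no WGATAR and only the shorter GATAR form, whereas the downstream OS held TGATAA 12 bp from its midpoint as well as 1 AGGTCA hexamer. Both are printed here because a promoter site and a distal site of the same gene can be read beside each other, on the plus strand from 5′ to 3′, with the GATAR match of the first and the WGATAR match of the second in capitals. The window of Nr0b2 also reached 7 other protein-coding genes, none of which had a TSS closer to either OS.
Nr0b2 site 1690: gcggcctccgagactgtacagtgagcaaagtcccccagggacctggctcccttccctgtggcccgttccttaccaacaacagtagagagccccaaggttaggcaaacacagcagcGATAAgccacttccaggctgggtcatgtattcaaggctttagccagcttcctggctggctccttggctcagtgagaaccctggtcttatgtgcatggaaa
Nr0b2 site 456: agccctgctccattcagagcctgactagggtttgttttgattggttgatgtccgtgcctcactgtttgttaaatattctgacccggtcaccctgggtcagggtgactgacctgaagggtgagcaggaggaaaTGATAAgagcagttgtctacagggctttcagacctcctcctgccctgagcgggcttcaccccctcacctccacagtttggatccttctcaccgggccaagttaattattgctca

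Nr5a2 encodes LRH-1, a receptor bound by phospholipids that partners with FXR and SHP in the control of bile acid synthesis. The gene spans 117 kb at chr1:138740161-138857004 on the minus strand, and 2 of its 4 OS lay next to the TSS of the transcript Nr5a2-201. The OS with the number 379 covered chr1:138857078-138857301, with its midpoint 185 bp upstream of that TSS. It overlapped by 55 bp with the OS numbered 4260 at chr1:138857247-138857566, 402 bp upstream, and the same MACS2 peak, number 567 and 676 bp wide, covered both. The pair therefore counts as 2 OS in the common list and as 1 peak of MACS2. OS 379 held 3 WGATAR matches on the plus strand, TGATAA 3 bp from the midpoint and AGATAA at 33 bp and at 50 bp, with spacers of 30 bp and 11 bp between neighbours. OS 4260 held a single TGATAA. Farther away, the OS numbered 3727 (chr1:138867646-138867965) lay 10801 bp upstream with 1 AGATAG, and the OS numbered 1531 (chr1:138812136-138812296) lay in intron 6 with no WGATAR and 1 WGATA. The order of the 4 in the common list thus ran from near the front (379) to near the end (4260), and did not follow the distance from the TSS. OS 379 is shown because it combines a promoter position with 3 motif matches, which are in capitals on the plus strand.
Nr5a2 site 379: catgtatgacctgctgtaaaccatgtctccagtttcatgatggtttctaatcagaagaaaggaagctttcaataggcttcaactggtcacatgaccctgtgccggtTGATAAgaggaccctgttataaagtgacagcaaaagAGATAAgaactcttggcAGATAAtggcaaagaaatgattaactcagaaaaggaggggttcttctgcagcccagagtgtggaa

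Nr1h4 encodes FXR, the bile acid receptor, on the minus strand of chr10:88916979-88996330. The OS numbered 1707 covered 103 bp at chr10:89028513-89028615, the narrowest of the 20, and lay 32234 bp upstream of the gene. It held AGATAA in 2 copies on the plus strand with 7 bp between them, next to 1 AGGTCA. A pair of WGATAR matches with a spacer of 0 to 10 bp occurred in 2 of the 20 OS and in 5.47% of all common OS. The OS numbered 2439 (chr10:88994070-88994203) lay in intron 1 of Nr1h4-002, 2194 bp from the TSS of that transcript and 24742 bp upstream of the TSS of the transcript Nr1h4-001, and it held TGATAA and TGATAG. In MACS2 the peaks over these OS had the numbers 2768 and 3257, so that both OS stood near the middle of either list. The upstream OS is given for its closely spaced pair, in capitals.
Nr1h4 site 1707: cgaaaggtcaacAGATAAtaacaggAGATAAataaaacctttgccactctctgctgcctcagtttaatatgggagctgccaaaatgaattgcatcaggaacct

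Nr1h3 encodes LXRalpha, the oxysterol receptor that drives cholesterol efflux and lipogenesis, at chr2:91024218-91042991 on the minus strand. Its only OS, number 2515 at chr2:90993101-90993420, was 30958 bp past the 3' end of the gene and 41782 bp from the closest TSS of a coding Nr1h3 transcript. It fell inside the neighbouring gene Madd, a regulator of small GTPases, 612 bp upstream of one of its TSS, and there were 4 other protein-coding genes in the window of Nr1h3. The OS held 2 copies of AGATAA on opposite strands, 52 bp apart. MACS2 called a further peak of 976 bp at chr2:91000542-91001517, 23189 bp past the gene, which is number 5355 of its list and is absent from the common list. For Nr1h3, assignment by window and assignment by nearest TSS therefore name different genes.

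Rxra encodes the retinoid X receptor alpha, the shared partner with which LXR, FXR, PPAR, PXR and CAR form heterodimers. Its body of 86.5 kb at chr2:27531960-27618477 (plus strand) held 2 OS and another lay close behind it, and all 3 came from the second part of the common list. The OS numbered 3420 (chr2:27558877-27559032) lay in intron 1 of Rxra-001, 26233 bp from the TSS of that transcript and 5858 bp upstream of the TSS of Rxra-002. The OS numbered 4293 (chr2:27607343-27607662) lay in intron 5, and the OS numbered 2856 (chr2:27619844-27620163) lay 1526 bp past the end of the gene. MACS2 covered them with the peaks 3181, 3926 and 4254, an order that differs from that of the common list. Each of the 3 held at least 2 WGATAR matches, namely 2 in OS 3420, 3 in OS 4293 and 2 in OS 2856. In OS 2856 both matches were TGATAA on opposite strands with only 2 bp between them, so that the pair, apart from these 2 bp, reads the same on either strand. The central 200 bp of this OS (chr2:27619904-27620103) are shown for that inverted pair, in capitals.
Rxra site 2856: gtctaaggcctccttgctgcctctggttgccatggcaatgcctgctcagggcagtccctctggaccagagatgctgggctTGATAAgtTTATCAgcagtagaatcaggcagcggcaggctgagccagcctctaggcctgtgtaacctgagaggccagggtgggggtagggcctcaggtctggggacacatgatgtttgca

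The gene of the fatty acid receptor and that of its coactivator each had a single intronic OS far from the annotated start. Ppara encodes PPARalpha, which senses fatty acids and turns on their oxidation in fasting. Its OS was number 42 of 4409 and number 47 of 5867 in MACS2, the earliest of the 20 in both lists, and 0.953% of the common list had been passed when it was reached. It covered 306 bp at chr15:85604885-85605190 in intron 2 of Ppara-001, 38831 bp from the TSS of that transcript, while the noncoding transcript Ppara-006 began 2393 bp away. It also held the most motif matches of the 20, with 4 WGATAR on the minus strand, and 1 AGGTCA hexamer. The first pair of matches, AGATAA and AGATAG, overlapped by 2 bases, and the next match began 33 bp after the start of the one before it and the last 109 bp further on. The central 200 bp (chr15:85604938-85605137) hold 3 of the 4 matches and are printed for this cluster, in which the matches appear on the plus strand as the reverse complement, in capitals.
Ppara site 42: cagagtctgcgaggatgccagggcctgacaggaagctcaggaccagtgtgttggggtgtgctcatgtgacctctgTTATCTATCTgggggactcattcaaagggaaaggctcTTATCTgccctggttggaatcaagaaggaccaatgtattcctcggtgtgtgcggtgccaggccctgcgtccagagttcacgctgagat

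Ppargc1a encodes PGC-1alpha, the coactivator of PPARalpha, HNF4alpha and the glucocorticoid receptor that is induced in fasting and raises gluconeogenesis and mitochondrial oxidation. Its gene spans 113 kb at chr5:51845488-51958964 on the minus strand. The OS, number 769 of the common list and number 1635 of MACS2, covered chr5:51902827-51902994 in intron 2 of Ppargc1a-001, 42250 bp from the TSS. It held 1 match to the GATA motif, which read TGATAG on the minus strand and lay 2 bp from the midpoint. A second peak in the same intron at chr5:51919015-51919686, 672 bp wide with 2 WGATAR matches, was called by MACS2 alone as number 5137. Apart from Ppargc1a no protein-coding gene lay within this window, as was also the case for Nr5a2 and Rxra. The OS is shown with its central match in capitals, as an example of a site with a single motif in its called interval of 168 bp. The 200 bp around its midpoint held 2 WGATAR matches.
Ppargc1a site 769: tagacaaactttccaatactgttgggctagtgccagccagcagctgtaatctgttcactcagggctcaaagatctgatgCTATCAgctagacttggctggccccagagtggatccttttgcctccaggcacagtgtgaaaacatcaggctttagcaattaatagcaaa

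Both genes for xenobiotic sensors had OS early in the lists, but the OS stood in different relations to the gene. Nr1i2 encodes PXR, which responds to drugs and bile acids and induces Cyp3a genes. Its only OS, number 537 in the common list and number 404 in MACS2, covered chr16:38287881-38288164 in intron 1, 6888 bp from the TSS of a gene that spans chr16:38248409-38294910 on the minus strand. It held 3 WGATAR matches and, in addition, 4 copies of AGGTCA counted on both strands. In this count Nr1i2 stood apart from the other OS of the 10 genes, which held 0 or 1 copy each. At least 2 copies were found in 3.56% of the common OS and at least 4 in 3 of the 4409 (0.0680%), a feature that was singled out after its values had been seen. The first pair of AGGTCA copies pointed away from each other with 4 bp between them, and the next copies followed after gaps of 99 bp and 101 bp. A match of letters is a description of the sequence and does not show which factor bound there. The OS is printed whole, with the 3 WGATAR matches in capitals.
Nr1i2 site 537: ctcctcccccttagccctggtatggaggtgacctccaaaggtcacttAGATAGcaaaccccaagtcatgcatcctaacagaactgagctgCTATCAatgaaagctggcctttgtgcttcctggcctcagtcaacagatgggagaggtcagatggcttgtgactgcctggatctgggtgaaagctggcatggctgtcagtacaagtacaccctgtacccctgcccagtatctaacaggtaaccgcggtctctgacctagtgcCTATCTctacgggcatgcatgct

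Nr1i3 encodes CAR, the sensor for phenobarbital-like compounds that induces Cyp2b genes, in a short gene of 6.73 kb at chr1:173144101-173150832 on the plus strand. All 3 of its OS lay downstream and none had a TSS of Nr1i3 as the nearest, in a window that also reached 7 other protein-coding genes. The OS numbered 441 (chr1:173154021-173154231, MACS2 number 232) was 3294 bp past the gene and 1059 bp upstream of the TSS of Apoa2, which encodes an apolipoprotein of high density lipoprotein made in hepatocytes. It held 2 WGATAR matches. The OS numbered 376 (MACS2 number 201) held no WGATAR and 1 GATAR. The OS numbered 2613 (chr1:173196581-173196735, MACS2 number 2657) lay 45826 bp past Nr1i3 and 3801 bp upstream of B4galt3, a galactosyltransferase gene, with 2 WGATAR matches. At Nr1i3, as at Nr1h3, the nearest TSS thus named other genes for every OS.

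In the 18 OS whose letters were read, AGATAA made up 11 of 31 WGATAR matches, TGATAA 9, AGATAG 6 and TGATAG 5. Over the 5734 matches in all common OS these forms made up 44.6%, 26.8%, 17.5% and 11.0%, so the order of the forms was the same. At least 1 WGATAR was found in 17 of the 20 OS of the 10 genes, against 82.9% of all common OS. At least 2 were found in 11 of the 20, against 34.7% over the common list. These counts are over the whole width of each OS. The 20 OS were wider, with a median of 225.5 bp against 190 bp. In the 200 bp around each midpoint, at least 1 WGATAR was found in 17 of the 20 and in 83.9% of all common OS. Whether width bears on the counts of 2 or more was not tested. The 3 OS that lacked WGATAR were the promoter OS of Nr0b2, the intronic OS of Nr5a2 and the Nr1i3 OS numbered 376, and all 3 held WGATA or GATAR, so that 20 of 20 held either form against 92.9% of all common OS. Windows of the same width placed 5000 bp to the right of the midpoints held WGATAR in 5 of 20 cases, and in 31.9% for the common list.

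**Figure D3:**
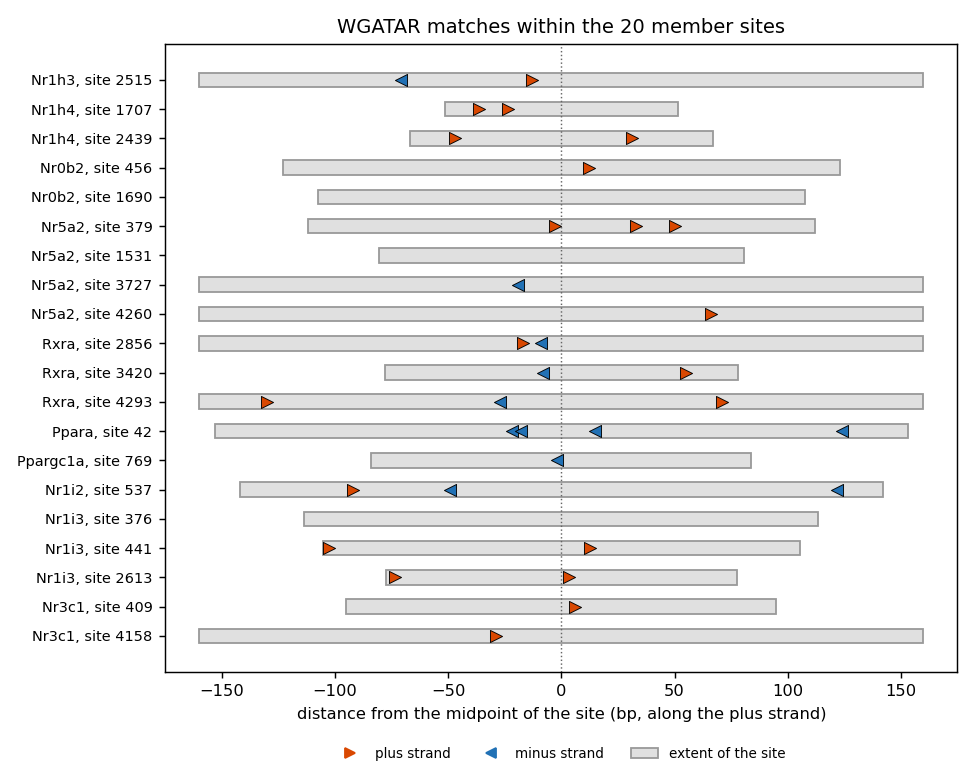
WGATAR matches in the 20 OS, with 1 OS per row named by gene and number in the common list (y axis) and the distance from the midpoint of the OS in bp along the plus strand (x axis), where grey boxes give the extent of each OS and arrowheads the strand. The 4 matches of the Ppara OS all point left, the 3 matches of the Nr5a2 OS numbered 379 all point right, and 3 OS are empty.

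Other motifs were counted in the 200 bp around each midpoint, on both strands and by exact letters. AGGTCA, the hexamer of nuclear receptors, was present in 8 of the 20 OS against 24.4% of the common OS. CAAAG, part of the element read by HNF4 and PPAR dimers, was present in 13 against 52.7%. The HNF1 hexamer GTTAAT was present in 2 against 4.88%, and TTGCNNAA for C/EBP factors in 2 against 12.7%. CTG followed by GATA after 8 bases, the composite of an E-box and a GATA site, was present in 3 against 5.87%. TGTTTAC for FOXA, CCGGAA for ETS factors, CACGTG for E-box factors and TGANTCA for AP-1 were present in 0 of the 20, against 6.17%, 8.71%, 3.54% and 7.28% of the common OS. With 20 OS, a motif with a share of a few percent gives a count near 0 or 1, and nothing about a factor is drawn from its absence in these windows.

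Nr3c1 encodes the glucocorticoid receptor, which binds cortisol-like hormones and acts on gluconeogenic genes mostly as a homodimer. The gene spans 80.8 kb on chromosome 18 from 39570199 to 39650955 on the minus strand and has several alternative start sites. The OS numbered 4158, at 39648500 to 39648819, lay in intron 1 of Nr3c1-001 and 278 bp downstream of the TSS of Nr3c1-007, in a CpG-rich stretch with 23 CpG dinucleotides and a GC content of 66.9%. The OS numbered 409, at 39684773 to 39684962, lay 33912 bp upstream of the gene, and the nearest TSS there was that of the predicted gene Gm10008 at 18531 bp. Each of these OS held 1 WGATAR. The promoter OS therefore stood near the end of the common list and the distal OS near its front, and MACS2 gave the same order with the numbers 4689 and 1248. A further peak at 39524053 to 39524482, number 4973 of MACS2, lay 45932 bp past the gene and was absent from the common list.

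Of the 20 OS, 8 were among the first 1102 of the common list, which are 25% of all common OS, and 3, 4 and 5 were in the stretches of the same length that follow. The first 1102 held 5 of the 15 OS whose nearest TSS was that of a member, and 3 of the other 5 OS. Among the first 1102 were the single OS of Ppara, that of Ppargc1a and that of Nr1i2, while no OS of Rxra or Nr1h3 was in the first 2204. The median number was 1698.5, or 38.5% into the list, against 2205 for all common OS. By the MACS2 peaks that overlap them, the median number was 1787, or 30.5% into that list, against 2195 or 37.4%. In this median the MACS2 peak 567 was counted for OS 379 and again for OS 4260 of Nr5a2. All 20 OS met a MACS2 peak by at least 1 bp, which the making of the common list requires. The widest gap between the lists was at the Nr5a2 promoter, where OS 4260 stood at 96.6% of the common list and its MACS2 peak, which OS 379 shares, at 9.66%. The promoter OS of Nr0b2 also stood earlier in MACS2, at 9.10% against 38.3%. Their widths ran from 103 to 320 bp around a median of 225.5 bp, against 190 bp, and 6 of the 20 had the width of 320 bp that 25.6% of all common OS share. Their median GC content was 51.8%, against 49.4%.

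**Figure D4:**
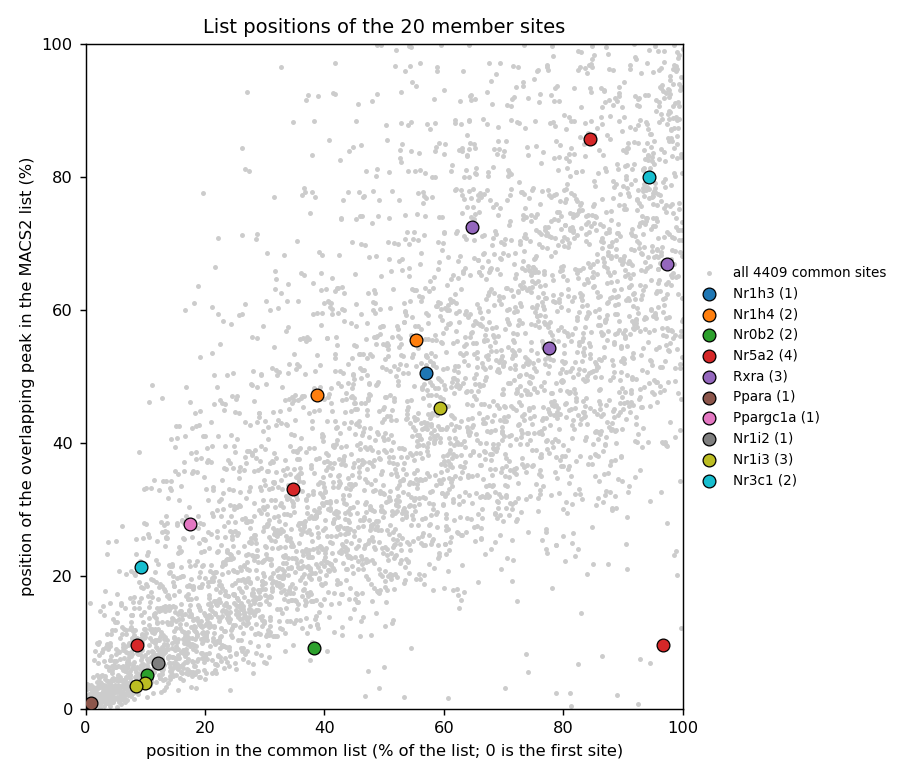
Position of each common OS in the common list (x axis, percent of the list) and of the MACS2 peak that overlaps it in the MACS2 list (y axis, percent), with all 4409 OS in grey and the 20 OS of the metabolic regulators coloured by gene. The Ppara OS lies in the lower left corner at 0.953% and 0.801%, and the Nr5a2 OS at 96.6% and 9.66% lies far below the others at its end of the common list.

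Genes of the same pathways, taken from 7 lists by function, were counted by the same rule. Of 40 other nuclear receptors, 20 had an OS within 50 kb and 12 within 10 kb, with the most at Rarb (4), a retinoic acid receptor with a body of 388 kb, and at Esrrb (3), an orphan receptor. Of 16 coregulators, 7 had an OS within 50 kb and 4 within 10 kb. Among 12 genes of bile acid synthesis and transport, 6 had an OS within 50 kb but only Cyp7a1, the rate-limiting enzyme of bile acid synthesis, had one within 10 kb. Slc10a1, the uptake transporter for bile acids, had 4 OS within 50 kb and 0 within 10 kb. Of 10 LXR targets, 6 had an OS within 50 kb and 5 within 10 kb, with 3 each at the cholesterol exporter Abca1 and at Mylip, which degrades the LDL receptor. Of 16 PPARalpha targets, 7 had an OS within 50 kb and 4 within 10 kb, among them the carnitine palmitoyltransferase genes Cpt1a and Cpt2. Of 11 PXR and CAR targets, 6 had an OS within 50 kb and 5 within 10 kb, with the most at the exporter gene Abcc4 (3). Of 10 targets of the glucocorticoid receptor and PGC-1alpha, 6 had an OS within 50 kb and 3 within 10 kb, with the most at Tsc22d3 (3), a glucocorticoid-induced gene. In total 58 of 115 listed genes (50.4%) had an OS within 50 kb, which can be set beside the 27.7% of all protein-coding genes, and the lists were not tested.

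**Figure D5:**
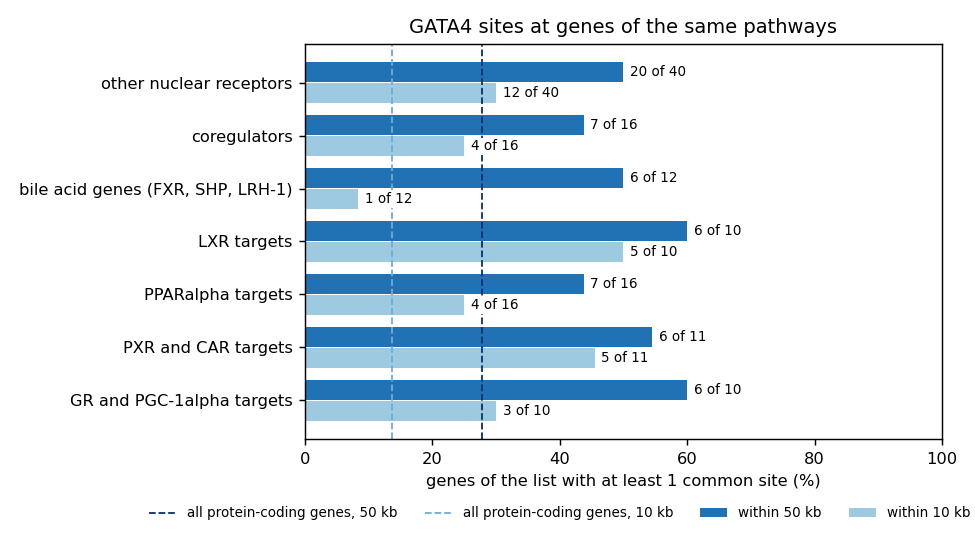
Percent of the genes of each list (x axis) with at least 1 common GATA4 OS within 50 kb (dark bars) or within 10 kb (light bars) of the gene, for 7 lists by function (y axis), with the number of genes beside each bar. The dashed lines give the shares over all protein-coding genes, 27.7% at 50 kb and 13.7% at 10 kb, and the bile acid list is the only one whose light bar ends to the left of its line, with 1 of 12 genes.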

How the data were processed

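GATA4 ChIP-seq peaks of whole mouse liver were analysed. The authors aligned reads to mm9 with Bowtie 0.12.7, called peaks with MACS2 2.0.10 and a modified SPP, set thresholds by the irreproducible discovery rate and intersected both lists with bedtools 2.16.1 (versions as in the submitters' processing notes). Both replicates and the input enter only through these calls. In the deposited files each peak has an interval, a number and a score, and the score is a display value of 1000 throughout. The number was used in its place.

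Peaks were placed on GENCODE M1 (95495 transcripts) and on the NCBI Build 37 sequence, which is mm9. All peaks end within its chromosomes. Peaks were taken by midpoint, motifs were matched exactly on both strands, and overlap meant at least 1 bp. Positions are 1-based. Each list gives 1 set of peaks for both replicates, so no test, interval or leave-one-out value was computed. The members and lists were chosen with earlier results of these data known. Named genes are the 10 members with every OS in their windows, genes that hold or lie nearest to such an OS, and up to 3 genes with the most OS per list. The surroundings of 1 OS of Nr1i3 are not reported here. Cyp7a1, Cpt1a and Cpt2 were named after their values were seen. Other settings, 33 in all, were windows of 5, 10 and 100 kb, whole peaks, the other lists, the first 2204 OS, other TSS sets, motif windows and overlap rules. Python 3.11.15, numpy 2.4.6, pysam 0.24.0 and matplotlib 3.10.9 were used, and overlap and motif searches were tested on simulated data.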

Additional observations from a re-analysis of the deposited data

How the results depend on the processing

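Of the 33 alternatives, 28 stayed within 1.5 times the reported value. The other 5 were by construction smaller sets or stricter rules. The first 2204 OS of the common list left 11 OS in the windows of the 10 genes, and 16.0% of protein-coding genes with an OS. Windows of 10 kb and 5 kb left 13.7% and 11.3% of protein-coding genes with an OS. Reciprocal overlap of at least 50% left 4 of the 20 OS with a MACS2 peak, since MACS2 peaks are the wider ones. The number of the 10 genes with an OS was 9 with windows of 10 kb or 5 kb, 8 with the first 2204 OS and 10 under the other 4 alternatives for it, and the windows held 14 to 23 OS under the alternatives other than the first 2204. No paired analysis was possible because each list gives 1 set of peaks for both replicates, without the calls of either replicate. Without read counts, depth limits cannot be given for a single OS, and a gene without an OS may have one below the threshold of the peak callers.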
